A study of Caenorhabditis elegans with 2 samples.

Results

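The regions described here are 2490 intergenic peaks from a pooled RNA polymerase II peak list on the 5 autosomes of Caenorhabditis elegans. Each has its summit far from every annotated protein-coding gene. A peak was included when its summit in the pooled peak list lay outside every protein-coding gene and more than 1000 bp from the start and the end of every such gene. The summit also had to lie more than 500 bp from every tRNA, snoRNA, snRNA, rRNA and miRNA gene, all taken from the Ensembl annotation (release 115) of WBcel235, the assembly that the authors' files call ce11. These peaks were 2490 of 27242 autosomal peaks and of 30000 peaks on all chromosomes. The study was a ChIP-seq experiment on AMA-1, the largest subunit of RNA polymerase II, in whole young adult worms, with 2 biological replicates of 1 group and no second condition. All worms were of strain YL503, which carries unc-119(ed3) III and the insertion vrIs110. In that insertion the pie-1 promoter drives AMA-1 with a C-terminal GFP and FLAG tag ahead of the ama-1 3'UTR, and unc-119(+) is the marker that rescues the mutation. Male and female worms were pooled, per the labels. Both replicates share this genotype, the pie-1 promoter is known for driving expression in the germ line, and whole worms mix all tissues, so the tissue behind a peak cannot be told apart. The antibody is labelled only as ama-1, without saying whether it bound the tag or AMA-1 itself.

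RNA polymerase II makes messenger RNA precursors and also most long non-coding RNAs, the spliced leader and spliceosomal RNAs, and microRNA precursors. In C. elegans the 21U-RNAs, which are the piRNAs of the worm, come from very short polymerase II units that lie in large numbers between and within genes of chromosome IV, many of them behind a short upstream motif. Transfer RNA genes are made by a different enzyme, RNA polymerase III, which is recruited through an A box and a B box inside the gene and stops at a run of T bases. Worm chromosomes also hold many pseudogenes, among them decayed copies of tRNA genes.

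At several peaks of high signal, the sequence around the summit held an A box followed by a B box on the same strand, although no annotated tRNA gene lay within 500 bp. The 6 elements printed here show this pattern, 3 of them from peaks in the authors' thresholded list and the last from a peak 1 bp from the tRNA pseudogene Y39B6A.t2. They were chosen after their values were seen, from 11 peaks of signal 15 or more that held the pair, and run in order of signal; 3 of the 11 that are not shown had a higher signal than the last line. Each is read 5′ to 3′ from the WBcel235 genome of RefSeq on the strand named, and the capitals mark the A box and then the B box (GTTCNANNC).
chrIII:2031295-2031403, minus strand: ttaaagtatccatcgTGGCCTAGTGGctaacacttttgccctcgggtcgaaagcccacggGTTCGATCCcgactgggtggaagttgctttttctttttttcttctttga
chrV:5667436-5667544, minus strand: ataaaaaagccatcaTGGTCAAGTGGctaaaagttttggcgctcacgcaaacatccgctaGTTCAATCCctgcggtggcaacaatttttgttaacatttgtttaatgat
chrIV:2664965-2665073, plus strand: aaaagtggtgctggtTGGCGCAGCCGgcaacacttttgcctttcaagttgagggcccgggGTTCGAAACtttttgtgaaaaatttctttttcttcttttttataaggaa
chrIII:1743220-1743328, minus strand: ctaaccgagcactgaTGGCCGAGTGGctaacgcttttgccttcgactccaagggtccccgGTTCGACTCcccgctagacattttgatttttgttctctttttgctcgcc
chrIII:2030882-2030989, minus strand: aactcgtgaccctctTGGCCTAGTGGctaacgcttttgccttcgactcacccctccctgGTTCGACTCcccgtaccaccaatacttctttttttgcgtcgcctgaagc
chrV:19058284-19058391, plus strand: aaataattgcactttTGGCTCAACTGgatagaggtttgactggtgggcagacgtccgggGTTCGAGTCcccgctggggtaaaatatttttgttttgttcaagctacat

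The third and the fourth of these lines differ in annotation. The element on chromosome IV lies inside the ncRNA gene Y69A2AR.37, and the element that starts at position 1743220 of chromosome III covers the annotated tRNA pseudogene Y22D7AR.t1. The first and the fourth lines were 75.9% identical over the 54 bases from the A box to the end of the B box, without gaps. That was the closest pair of equal span, and only elements of equal span were compared. The fifth line, of 53 bases, was therefore not set against the fourth, with which it shares long runs of bases. The lowest identity of an element to its closest other of equal span was 55.6%. The closest annotated nuclear tRNA gene of the same span was 61.1% to 79.2% identical to the printed elements, highest for the last line, as the best match among all such genes and so above a typical pair by construction. For comparison, the stretches around the summits of the peak of highest signal and of the strongest peak inside an ncRNA gene show no A box and B box in order. In these 2 lines capitals mark GAGAGA or GGGCGG, or their reverse complements, and the first line holds neither.
chrIV:7800461-7800561, plus strand: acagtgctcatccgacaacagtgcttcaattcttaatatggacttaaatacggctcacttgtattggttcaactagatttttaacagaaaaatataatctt
chrII:11042985-11043085, plus strand: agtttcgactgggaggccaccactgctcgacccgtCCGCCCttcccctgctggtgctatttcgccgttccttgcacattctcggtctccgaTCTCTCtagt

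The pair of boxes was searched up to 150 bp on either side of each summit, on both strands, with the A box taken by its standard consensus and the B box starting 30 to 70 bases after it. It was found in 54 of the 2490 peaks, or 2.17% (exact 95% binomial interval 1.63 to 2.82). The same search over all 48255 windows of that length tiled end to end over autosomal sequence that meets the rule found it in 0.671% (0.601 to 0.748). Other intergenic autosomal peaks that also lay more than 500 bp from small RNA genes held it in 0.985% of 5077 cases (0.732 to 1.30). Of 612 annotated nuclear tRNA genes, 91.8% held it, a measure of how often the search finds a gene of this type. The search was added after sequences of thresholded and other strong peaks had been seen, so these shares are a description. Intervals on shares and densities cover the sampling of peaks only, and neighbouring peaks are not independent.

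The share with both boxes changed little up to a signal of 15 and was higher above it. Signal here is the authors' enrichment value for a peak, read from the pooled list unless a replicate is named. Below 15 the pair was in 43 of 2404 peaks, or 1.79% (1.30 to 2.40), and at 15 or more it was in 11 of 86, or 12.8% (6.56 to 21.7). At 20 or more it was in 7 of 33, and in the thresholded list in 4 of 9. These counts at high signal include the peaks whose sequences prompted the search, so they are no separate support for a rise with signal. The boxes were 43 to 45 bases apart in 48 of the 54 peaks and in 10 of the 11 at high signal, beside 435 of the 562 annotated tRNA genes and 229 of the 324 tiled windows with the pair. A run of TTTT followed the B box within 40 bases in 46 of the 54 peaks and in 249 of the 324 tiled windows with the pair.

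**Figure D1:**
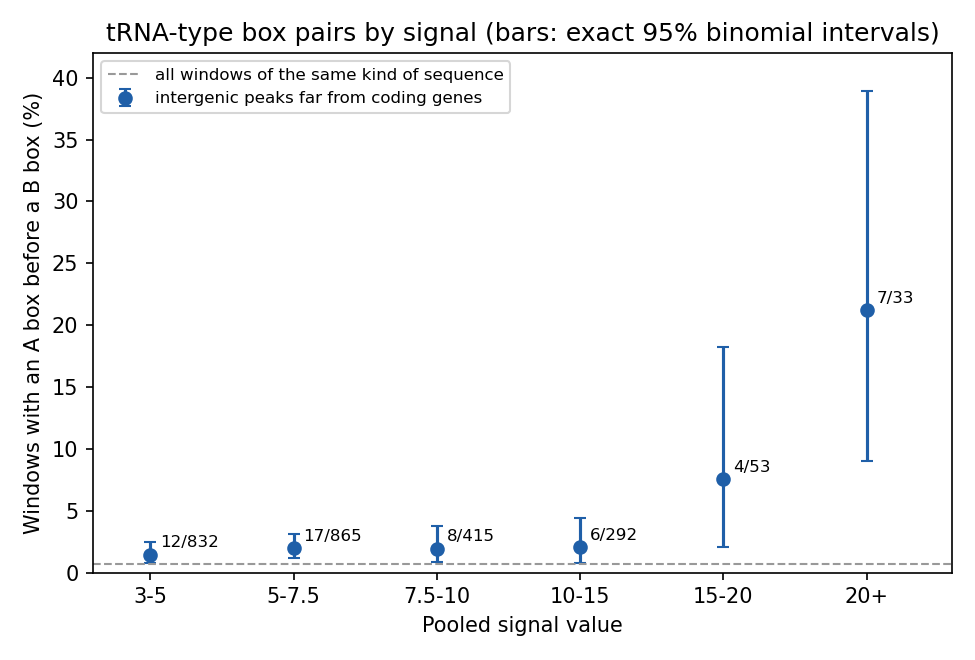
Share of intergenic peaks (y axis, percent) whose sequence up to 150 bp on either side of the summit held an A box before a B box, by pooled signal value (x axis). Points are shares with exact 95% binomial intervals, and labels give peaks with the pair over all peaks in the bin. The dashed line is the 0.671% of tiled windows. The share was 21.2% at a signal of 20 or more and 1.44% at 3 to 5. The bins of high signal include peaks whose sequences prompted the search.

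Counted from the sequence rather than from the peaks, 415 such pairs lay in autosomal sequence that meets the rule. A peak summit lay within 150 bp of 64 of them, or 15.4% (12.1 to 19.3), whereas 4.97% of that sequence lay within 150 bp of a summit. Of the 64, 12 lay beside a peak of signal 15 or more. This count takes the same peaks and pairs from the other side, with the peaks that prompted the search among them. It is therefore no separate support. Similarity to tRNA genes over a longer stretch was a separate measure: a blastn alignment of at least 40 bases to an annotated tRNA gene was found in 22 peaks, 0.884% of the 2490 (0.555 to 1.33), and in 0.174% of the tiled windows. The alignment covered the summit in 5 of the 22. Alignments to miRNA genes were found in 53 peaks, or 2.13%, against 1.49% of the tiled windows. For snoRNA genes the shares were 0.361% and 0.390%. Only 1 of the 11 high-signal peaks with the boxes had an alignment to a tRNA gene, against 17 of the 43 of lower signal. Neither measure says which polymerase was at these sites. Signal of AMA-1 at sequence of this type was measured, and its source was not tested.

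The 9 peaks in the authors' thresholded list lay in very different surroundings: past a pseudogene, inside ncRNA genes, and before or past coding genes. They were 0.361% of the members (0.165 to 0.685), against a background of 2.24% over all autosomal peaks and 5.01% among other intergenic peaks. Here and below, these are all 5391 other autosomal peaks outside coding genes. Unlike the members, they include peaks within 500 bp of small RNA genes. The strongest, at 7800511 on chromosome IV, had a pooled signal of 79.1, with 65.0 and 13.5 in replicates 1 and 2. It lay 259 bp past the end of the kinesin-like pseudogene klp-10 (WBGene00002221) and 1307 bp from the coding gene C33H5.16. Both replicates held it. Its deposited interval spanned 113 bp, where 2488 of the 2490 members had intervals of 1 common, greater width.

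The peak at 2031349 on chromosome III, the first element printed, had a pooled signal of 51.9, with 32.8 and 17.3 in replicates 1 and 2. It lay 3639 bp from dpy-1, a gene named for its dumpy mutant body, and 1169 bp from the tRNA gene M01E10.t1. A neighbouring peak at 2030940, with a signal of 23.9, held the fifth element but matched neither replicate's list. The peak at 1743309 on the same chromosome, inside the tRNA pseudogene Y22D7AR.t1, had a pooled signal of 25.9, just under those of the thresholded set, and 21.3 and 4.85 in replicates 1 and 2. The peak at 5667559 on chromosome V, 1473 bp before the start of C14C11.7, had 31.6 in the pooled list and 21.5 and 9.46 in the replicates. All of these were higher in replicate 1 where both values exist.

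The peak at 2665027 on chromosome IV went the other way, with a pooled signal of 27.8 and the lower value, 7.58, in replicate 1 against 16.1 in replicate 2. It lay inside 2 overlapping ncRNA genes, Y69A2AR.37 and Y69A2AR.38, on opposite strands, and 713 bp past the tRNA pseudogene Y69A2AR.t3. The peak at 11043035 on chromosome II, inside the ncRNA gene F33A8.11 and between the Y-box RNA-binding gene cey-1 and the collagen gene col-83, had a pooled signal of 29.0, with 10.9 and 11.5 in replicates 1 and 2, the closest pair of replicate values among the 8 held by both. The peak at 13062681 on chromosome III, 7239 bp from F54F12.1, was the thresholded member farthest from a coding gene. Its pooled signal was 27.5, with 23.3 and 5.69 in replicates 1 and 2, so this peak too leaned to replicate 1.

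On chromosome I lay 3 thresholded members. The peak at 2728630, 1085 bp past the end of snr-7, a core spliceosomal Sm protein gene, had a pooled signal of 46.5, with 33.5 and 11.5 in replicates 1 and 2. The peak at 852272, 1179 bp before the start of zfr-1, a zinc finger RNA-binding protein gene, had 39.9 in the pooled list and 34.3 and 12.6 in the replicates, and also held the pair of boxes. The peak at 7660245, between genes F26A3.4 and F26A3.5 whose starts face each other, had a pooled signal of 27.7 and 28.8 in replicate 1, and was not matched in replicate 2. It was the one thresholded member whose summit fell inside a peak of a single replicate's list.

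As a set, the members were weaker and less often seen in both replicates than other autosomal peaks. Their median pooled signal was 6.03, with a range of 3.61 to 79.1, against 7.07 for all other autosomal peaks, 6.88 for those inside coding genes and 7.94 for the other intergenic ones. A q value of 0.05 or less was given to 612 members, or 24.6% (22.9 to 26.3), where 37.5% of all autosomal peaks had one. The summit lay inside a peak of both replicates for 296 members, or 11.9% (10.6 to 13.2), against a background of 20.9% over all autosomal peaks and 28.7% (27.5 to 29.9) for other intergenic peaks. Replicate 1 alone held 946 members, or 38.0%, against 37.2% of all autosomal peaks. Replicate 2 alone held 581, or 23.3%, against 22.3%. Matched in neither were 667, or 26.8%, against 19.5%. The pooled list contains the reads of both replicates, so a match is not independent of it.

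**Figure D2:**
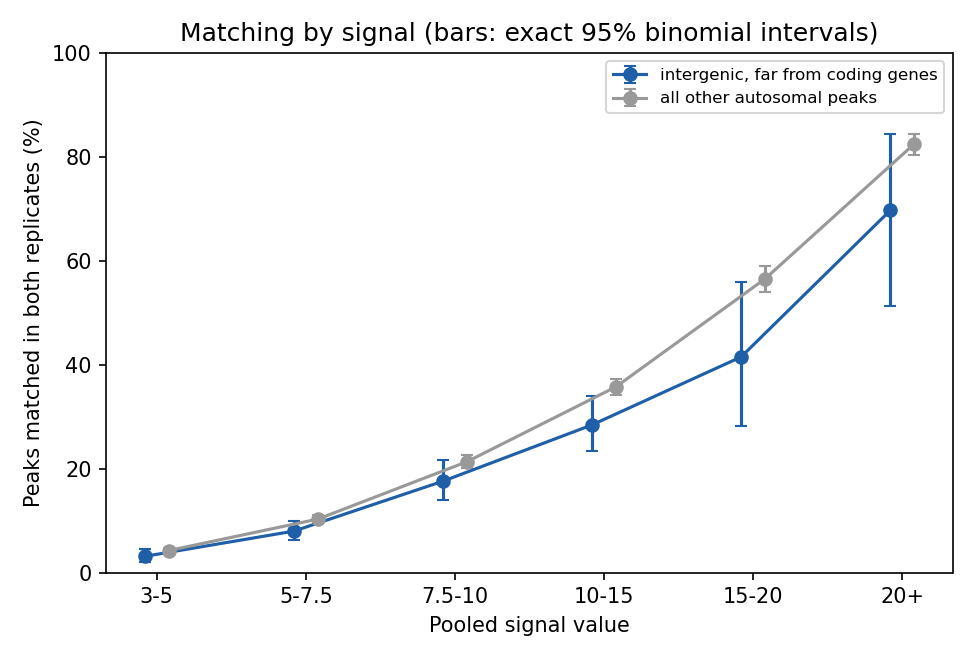
Share of peaks matched in both replicates (y axis, percent) by pooled signal value (x axis), for the intergenic peaks far from coding genes (blue) and all other autosomal peaks (grey), with exact 95% binomial intervals. The share of the intergenic peaks went from 3.13% at a signal of 3 to 5 up to 69.7% at 20 or more, and lay below the other peaks in each bin (4.23% and 82.5% in those bins).

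Matching went up steeply with signal, so the weaker signal of the members and their lower match share move together; the part of signal in the match share was not tested beyond the bins given here. Between signals of 10 and 15, 28.4% of members were matched in both (23.3 to 33.97) against 35.8% of other autosomal peaks (34.3 to 37.3). From 7.5 to 10 the shares were 17.6% (14.0 to 21.6) and 21.3% (20.1 to 22.6), with intervals that overlap. Where both replicates held a member, replicate 1 had the higher signal in 201 of 296, and the median ratio of replicate 1 to replicate 2 was 1.34 (interval 1.24 to 1.53). The ratio over other autosomal peaks was 1.43 (1.39 to 1.46), the same direction. Across the 296 members, the signals of the replicates had a Spearman rho of 0.13, against 0.33 over the 5408 other autosomal peaks matched in both, as a description over peaks that share 2 libraries. The members also had lower signals, with a replicate 1 median of 5.06 against 6.94, and neighbouring peaks can share the same replicate peak. The part of either in rho was not tested.

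**Figure D3:**
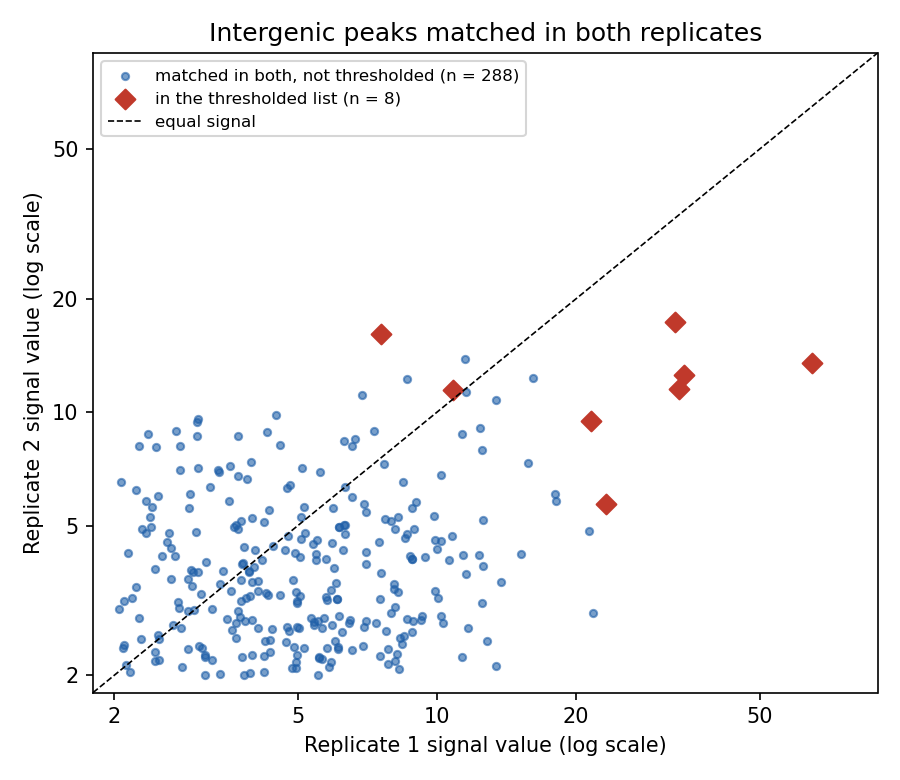
Signal value in replicate 2 (y axis, log scale) against replicate 1 (x axis, log scale) for the 296 intergenic peaks matched in both, with the thresholded ones as red diamonds and the line of equal signal dashed. The weaker peaks form a broad cloud, and 7 of the 8 thresholded peaks reach 10 or more in replicate 1.

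The members were spread thinly. Sequence that meets the rule amounts to 14.5 Mb of the autosomes and held 172 members per Mb (exact 95% Poisson interval 165 to 178), against 364 peaks per Mb (359 to 368) elsewhere on the autosomes. By chromosome the density was 221 per Mb on I (201 to 242), 211 on III (192 to 232), 179 on IV (166 to 193), 152 on II (138 to 168) and 126 on V (115 to 138). The intervals of neighbours in this order overlap, and those of I and V do not. The peaks elsewhere on these chromosomes were also densest on III and I and sparsest on V. The members came in greater number from the arms, at 179 per Mb (171 to 188), than from the middle of 3 equal parts of each chromosome, at 154 (143 to 166). The other autosomal peaks had the opposite order, 344 per Mb on the arms (339 to 350) and 402 in the middle (394 to 410).

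**Figure D4:**
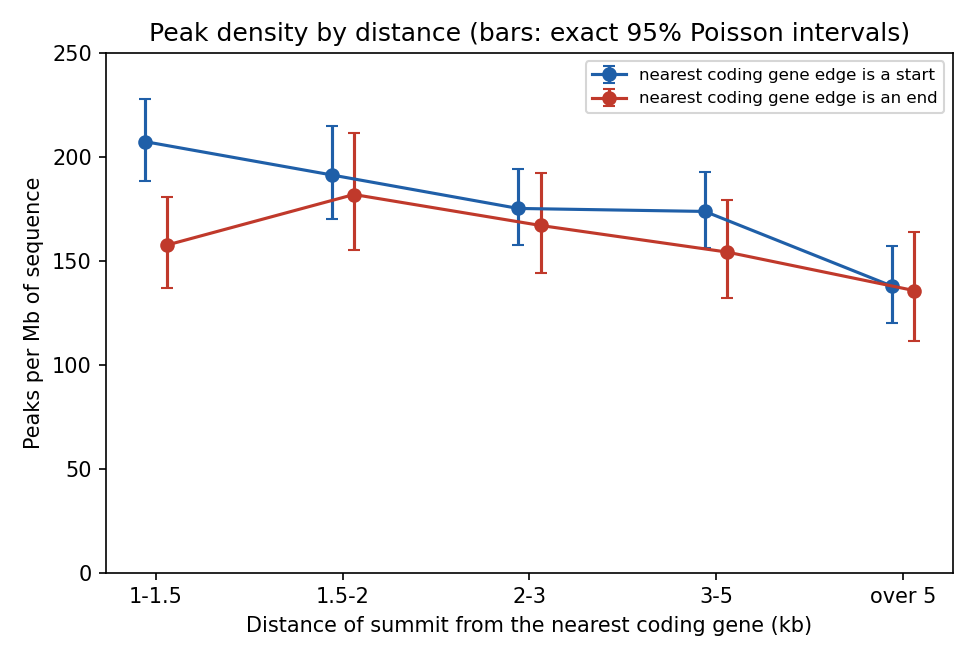
Members per Mb of sequence that meets the rule (y axis) by distance of the summit from the nearest coding gene in kb (x axis), split by whether that gene's nearest edge is its start (blue) or its end (red), with exact 95% Poisson intervals. The density beside starts went from 207 per Mb at 1 to 1.5 kb down to 138 beyond 5 kb; beside ends it was 158, then 182 at 1.5 to 2 kb, and 135.7 beyond 5 kb.

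Density was about level up to 2000 bp from coding genes and lowest beyond 5000 bp. It was 188 per Mb at both 1000 to 1500 bp (174 to 203) and 1500 to 2000 bp (171 to 206), and 137 beyond 5000 bp (123 to 153). At 1000 to 1500 bp the density beside gene starts, 207 per Mb (188 to 228), was above that beside gene ends, 158 (137 to 181). In the next bin, 1500 to 2000 bp, the intervals overlapped, at 191 (170 to 215) beside starts and 182 (155 to 212) beside ends, and beyond 5000 bp the values were 138 and 135.7. Gaps between genes whose starts face each other held 180 per Mb (169 to 192), gaps between genes on the same strand 175 (165 to 184), and gaps where gene ends face each other 126 (108.6 to 145). The median member lay 2240.5 bp from its nearest coding gene.

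The farthest members were all on chromosome IV. The peak at 6707232 lay 31495 bp from Y73B6A.3 and 180 bp past the pseudogene Y73B6A.6 (WBGene00044503), with a pooled signal of 5.003, 3.11 in replicate 1 and no match in replicate 2. The peaks at 16105408 and 16091015 lay 27056 and 23570 bp from coding genes in the same gap, beside the piRNA gene 21ur-10671 and inside the pseudogene Y105C5B.30 (WBGene00044085). The first had 6.23 and was held by replicate 2 at 3.34, and the second had 12.3 and was held by replicate 1 at 7.84. None of the farthest members was seen in both replicates.

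At the edge of the rule, signals were alike on both sides. The 3 members just inside lay 1001 bp from ztf-26, 1001 bp from daf-2, the insulin receptor gene, and 1002 bp from W05F2.4, with signals of 9.39, 7.68 and 6.58. The 3 peaks just outside lay 1000 bp from D1014.13, 1000 bp from H14N18.2 and 999 bp from W10D9.1, with signals of 4.38, 11.1 and 4.19. Over the 349 members up to 250 bp past the margin the median signal was 6.30, and over the 433 peaks up to 250 bp short of it that met the rest of the rule it was 6.29. Against the coding genes of RefSeq on the same assembly, 3 members lay within 1000 bp of one.

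Annotated non-coding genes lay within 500 bp of 852 members, 34.2% (32.4 to 36.1), and the other 1638 had none. As the sequence near such genes is also a large part of what meets the rule, densities say more than shares. Members beside any of these genes came at 163 per Mb (152 to 174) and members with none beside them at 177 (168 to 185), with intervals that overlap. The classes differed: density was high beside long intergenic RNA genes, above the average beside piRNA genes, and low at pseudogenes.

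**Figure D5:**
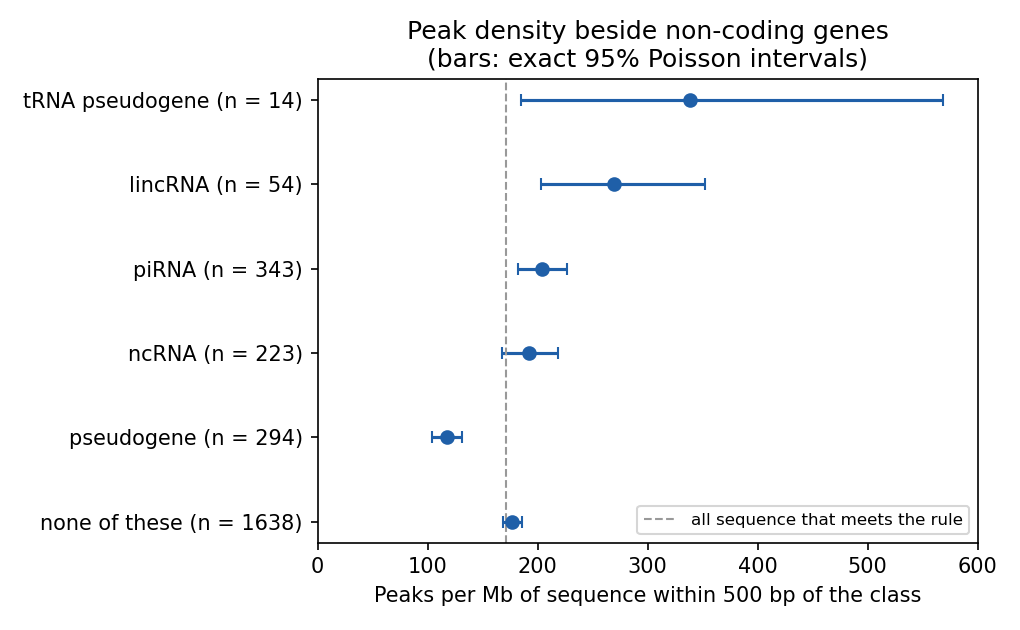
Members per Mb of sequence that meets the rule within 500 bp of each class of non-coding gene (x axis), with exact 95% Poisson intervals and the number of members in brackets; the dashed line is the 172 per Mb of all such sequence. The tRNA pseudogenes (339 per Mb) and the lincRNA genes (270) lie to the right of the line and the pseudogenes as a whole (118), which include the tRNA pseudogenes, to the left.

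The lincRNA genes, which encode long transcripts between coding genes, had 54 members at 270 per Mb (203 to 352), 32 of them inside the gene. The strongest, at 4701530 on chromosome I inside linc-91, had a pooled signal of 18.9, with 6.95 and 5.72 in replicates 1 and 2. The peak at 10819313 on chromosome III inside linc-129 had 15.3, with 15.3 in replicate 1 and no match in replicate 2. The peak at 11809779 on chromosome IV, 106 bp past linc-151, had 14.4, with 4.57 and 8.16. Thus 2 of these 3 were in both replicates. Of all 54 members beside lincRNA genes 7 were, or 13.0% (5.37 to 24.9), close to the 11.9% of all members.

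The ncRNA class, short transcripts of mostly unknown role, had 223 members at 192 per Mb (167 to 219), and 55 of them lay inside the gene at 251 per Mb (189 to 327). Its strongest members after the thresholded ones included the peak at 14249624 on chromosome II, 18 bp from Y48B6A.23 and 1071 bp before the start of hmg-1.1, an HMG-box gene. Its signal was 25.4, with 16.1 and 12.3 in replicates 1 and 2. The antisense RNA class had 4 members, with signals of up to 9.67 at 10809322 on chromosome IV, where the pseudogene R13.6 and anr-57 overlap on opposite strands. That summit lay inside R13.6 and 236 bp before the start of anr-57. A second peak, at 10809927 inside both genes, had 8.92, with 7.02 and 2.79 in the replicates. The third of the class, at 2440684 on chromosome III inside anr-28, had 7.97, with 9.10 in replicate 1 and no match in replicate 2.

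The piRNA genes had 343 members within 500 bp, 335 of them on chromosome IV. There the density beside piRNA genes was 209 per Mb (187 to 233), against 158 (143 to 175) over the rest of the sequence of chromosome IV that meets the rule. These members were weak, with a median signal of 5.61 against 6.03 over all members. None was in the thresholded list, but the exact upper limit of 1.07% includes the 0.361% of all members. Of the members beside piRNA genes, 20, or 5.83% (3.60 to 8.86), were in both replicates. The share was 12.3% (10.8 to 14.0) for members with no non-coding gene beside them. The GC content of members beside piRNA genes was low, at a median of 28.9%, the same as in the tiled windows beside these genes. The strongest were at 5388772 on chromosome I beside 21ur-14736 (20.99), at 15433994 on chromosome IV beside 21ur-602 (20.9) and at 17174247 on chromosome IV beside 21ur-7280 (17.0), each matched in a single replicate.

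The upstream motif of 21U-RNA genes, CTGTTTCA, was searched on both strands in the same windows. It was in 35.0% of the members beside piRNA genes (29.9 to 40.3) and in 31.7% of the tiled windows beside them (30.5 to 33.0), so its share beside these genes was close to that of the sequence itself. The piRNA gene nearest to each of these members gave 336 genes, all within 500 bp of a member. Of these, 36.01% had the motif in the 60 bp upstream, against 33.8% of all 15201 autosomal piRNA genes. Over all members the motif was in 6.47% (5.53 to 7.504), against 5.17% of all tiled windows and 2.25% of other autosomal peaks. The fullest gap, between irld-18 and dmd-6 on chromosome IV, held 12 members, all beside piRNA genes, with a median signal of 5.59 and none in both replicates.

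Pseudogenes had 294 members within 500 bp, at 118 per Mb (104 to 132), below the 172 of all such sequence. The low density lay inside the pseudogenes other than those of tRNAs, at 106 per Mb (91.5 to 121), and in the 500 bp before them, at 126 (90.2 to 171). In the 500 bp past their ends it was 196 (147 to 255), and the strongest member of all was there. The peak at 11110960 on chromosome III, inside the pseudogene Y48A6C.2, had 24.6, with 11.6 and 11.3 in replicates 1 and 2. The tRNA pseudogenes had 14 members within 500 bp, at 339 per Mb (185 to 569), and 2 of these were in both replicates. Small RNA genes themselves were left out by the rule up to 500 bp, and the density was 265 per Mb at 500 to 1000 bp from them (188 to 362), 272 at 1000 to 2000 bp (213 to 343) and 208 at 2000 to 5000 bp (175 to 246).

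The base composition of the members was close to that of the sequence they come from. The median GC content in these windows was 34.2% in members, 33.9% in the tiled windows and 35.9% in other autosomal peaks. It went up with signal, from 33.6% at 3 to 5 to 37.9% at 20 or more, and the peaks inside coding genes went from 35.5% to 37.2% over the same range. The motif GAGAGA was in 22.0% of members (20.4 to 23.7), 21.4% of other intergenic peaks and 15.6% of tiled windows (15.3 to 15.9), and in 36.05% of the members of signal 15 or more (26.0 to 47.1). Of the thresholded members, 5 of 9 held it and 6 of 9 held a B box, where 10.7% of all members and 9.91% of tiled windows held a B box.

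GGGCGG was in 8.07% of members (7.03 to 9.21), 7.72% of other intergenic peaks and 5.10% of tiled windows. A run of 8 T bases was in 39.5% of members (37.6 to 41.4), 36.5% of other intergenic peaks and 34.05% of tiled windows. The TATA-type motif TATAAA was in 747 members (interval 28.2% to 31.8%), 34.2% of other intergenic peaks and 31.6% of tiled windows. For the polyadenylation-type motif AATAAA the shares, in the same order, were 52.7% (50.7 to 54.7), 64.2% and 51.4%. For the telomere unit TTAGGC they were 8.67% (7.60 to 9.85), 7.53% and 7.78%. Repeated sequence was rare in the set: the 36 bases at the summit occurred once in the genome for 2452 members, or 98.5% (97.9 to 98.9), as for 98.4% of other autosomal peaks, and all 9 thresholded members were among them.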

How the data were processed

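Each replicate and the pooled reads came with a relaxed ce11 peak list, and the pooled reads with a thresholded list as well. The authors deposited a signal value (coverage-type enrichment, never negative) and a −log10 q value for each peak, per the file lists. The aligner, peak caller and signal scale stand as not given in the sources used here. The lists hold 30000 (replicate 1), 27106 (replicate 2), 30000 (pooled) and 732 (thresholded) peaks, and read depth is unknown. Lists on the older ce10 assembly were not used.

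Summits were placed against Ensembl genes (release 115) and matched where a pooled summit fell inside a replicate's interval; where several did, the highest signal was used. Shares have exact (Clopper-Pearson) and densities exact Poisson 95% intervals. The 8 motifs and the boxes were searched 150 bp on either side of the summit, on both strands, and 36 bases at the summit were counted in the genome. Tools were Python 3.11.15, pandas 2.3.3, numpy 2.4.6, scipy 1.17.1, matplotlib 3.10.9 and blastn 2.17.0 (E value of 1e-05 or less, at least 40 bases). The helper functions were tested on simulated data. With 1 group of 2 replicates there is no condition to test and no p-value is given. Named peaks are all members of the thresholded list, the 3 strongest beside each non-coding class, the 3 farthest from coding genes and the 3 on each side of the margin; the peaks at 2030940 and 19058364, the 6 printed elements and the boxes were chosen after their values were seen. The members and lists were chosen with earlier results of these data known.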

Additional observations from a re-analysis of the deposited data

How the results depend on the processing

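Of 53 alternatives over 9 values, 26 moved the value by less than its spread and 27 by more. The spread was the exact binomial interval for shares and the interval of the median for the replicate ratio. For signal, GC and density it was the standard deviation between the own lists of the 2 replicates. These measures are unlike, so the 26 and 27 are a description only. Without one replicate, the share matched was 35.2% to 49.9%, the thresholded share (the 732 strongest peaks of the other replicate) 0.482% to 0.643%, the median signal 4.13 to 5.54 and the share with both boxes 2.33% to 3.31%. In the stronger 15000 pooled peaks the share matched was 22.8%, the thresholded share 0.934%, the median signal 9.10, GC 35.2%, the density 66.4 per Mb, single-copy summits 99.0%, the replicate ratio 1.54 and the box share 2.90%. With a margin of 500 bp the share matched was 13.4%, the share beside non-coding genes 31.7% and the density 182 per Mb; with 2000 bp the thresholded share was 0.143%, the share beside non-coding genes 37.3% and the density 161 per Mb. An overlap of 1 bp gave 19.8% matched (34.3% for other autosomal peaks). The stronger 366 thresholded peaks gave 0.161%. The share beside non-coding genes was 28.8% within 250 bp, 42.3% within 1000 bp, 23.7% without pseudogenes and 22.4% without piRNA genes. GC within 50 bp of the summit was 34.7%, single-copy summits at 50 bases were 99.2%, and the box share within 75 bp was 1.04%. The box settings and the removal of repeated summits were chosen after seeing the data. The cause was not tested where the setting does not itself set the value.

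No paired analysis was possible because the series has 1 group. Depth is unknown, no control library was analysed here, and with 2 replicates a peak matched in one only cannot be placed further.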
